A study of Mus musculus with 3 samples.

Results

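The 10 genes described here encode cyclins, cyclin-dependent kinases (CDKs) and CKS proteins: Ccna2, Ccnb1, Ccnb2, Ccnd1, Ccnd2, Ccne1, Cdk1, Cdk4, Cks1b and Cks2. They were taken by name, with earlier results of these data known, from the 21853 protein-coding genes of GENCODE M21 (mouse genome build GRCm38). A peak was given to a gene where it overlapped the gene or the 5 kb upstream by at least 1 bp. The data came from mouse embryonic brain cortex at E13.5. Chromatin was precipitated with an antibody to NF-YC (called NF-Y-ChIP) or to H3K4me3, and an input was kept, giving 3 libraries. All 3 shared tissue and stage, and no strain or genotype is given for the ChIP embryos. For Western blots of cortices at this stage the study's methods name B6 embryos. The cortex is a mixture of cells in and out of the cell cycle, so a peak cannot be placed in either. Each antibody had 1 library, so the values carry no replicate error and no test was made. Read depth is unknown from peak lists.

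A cyclin binds and switches on a CDK, and the CKS proteins are small partners that help CDK complexes act on phosphorylated substrates. D-type cyclins with Cdk4 act in G1 phase, cyclin E at entry into S phase, cyclin A in S and G2 phases, and B-type cyclins with Cdk1 in mitosis. NF-Y is a trimer of NF-YA, NF-YB and NF-YC that binds the CCAAT box, a motif known from promoters of G2 and mitotic genes. H3K4me3 is a histone mark found at the start of active or poised genes. As a check of the tissue, an H3K4me3 peak lay within 1 kb of a transcript start at 10 of 10 cortex, progenitor and neuron genes. The same held for 13714 of all 21853 protein-coding genes, so this check is a weak one.

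The CCAAT boxes were read from the GRCm38 sequence in a window from 250 bp before to 50 bp after the start of each gene's principal transcript, on either strand. Positions count from the first transcribed base, which is 0, and name the first base of the motif on the gene's strand. The stretches below are shown because they hold all 15 boxes found in the windows of the 10 genes. They are written 5′ to 3′ on the gene's strand, with CCAAT or its reverse complement ATTGG in capitals.
Ccnb1 upstream, chr13:100786571-100786595, minus strand: acccgcggcgCCAATgggaagagag
Ccnb1 after the start, chr13:100786539-100786563, minus strand: cacgaactggCCAATgaggagcgag
Ccnb2 upstream, chr9:70421548-70421651, minus strand: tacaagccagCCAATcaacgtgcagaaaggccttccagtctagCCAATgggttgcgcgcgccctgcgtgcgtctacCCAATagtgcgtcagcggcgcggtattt
Cdk1 far upstream, chr10:69353104-69353132, minus strand: caacaggacgatATTGGaaggaaaacaga
Cdk1 upstream, chr10:69352939-69353002, minus strand: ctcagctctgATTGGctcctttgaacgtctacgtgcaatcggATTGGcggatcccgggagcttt
Cks1b first box, chr3:89418494-89418518, minus strand: ccaaagttggCCAATggctgcgcca
Cks1b second box, chr3:89418454-89418478, minus strand: gcagtgagagCCAATgagaatccta
Cks1b after the start, chr3:89418359-89418383, minus strand: aagCCAATcgaggacttcaaaatgg
Cks2 upstream, chr13:51645157-51645231, plus strand: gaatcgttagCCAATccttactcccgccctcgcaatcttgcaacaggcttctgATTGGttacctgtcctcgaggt
Cks2 after the start, chr13:51645243-51645272, plus strand: gtgATTGGttggtggcttcgcCCAATcggc

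NF-Y-ChIP peaks were listed at both CKS genes and at none of the cyclin and CDK genes among the 10. This was 2 of 10 genes, or 20% with a 95% Wilson interval of 5.67% to 51.0%, beside 3.67% of all protein-coding genes. The interval covers counting error only. The CKS paralogs encode closely related proteins, and their peaks had unequal values. Cks2 had a fold enrichment of 21.5, which placed it 14th by rank among the 733 NF-Y-ChIP peaks. Cks1b had a fold enrichment of 6.64, rank 377, close to the median of the list (6.75). The −log10 q-value, as given by the peak caller, was 55.4 at Cks2 and 5.04 at Cks1b.

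The peak at Cks2 (chr13:51645094-51645386) was 293 bp wide and its summit lay at position -4, just before the first exon. All 4 Cks2 boxes lay inside this peak. The 2 boxes on either side of the start, at -22 and 14, had their centres 16 bp and 20 bp from the summit. The outer boxes, at -65 and 32, lay 59 bp and 38 bp from it, and the box at 32 is in the 5′ UTR, as is that at 14. A Cks2 H3K4me3 peak of 42.2-fold overlapped the NF-Y peak.

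The peak at Cks1b (chr3:89418259-89418447) was 189 bp wide and its summit lay at 25, in the 5′ UTR. Of the 3 Cks1b boxes in the window, only that at 3, also in the 5′ UTR, lay inside the peak, with its centre 20 bp from the summit. A further box at 51, just past the window, lay inside the peak too, 28 bp from the summit. The boxes at -125 and -85 were 148 bp and 108 bp from the summit and outside the peak. Cks1b shares this region with Shc1, which encodes a signalling adaptor and is transcribed the other way from starts at -60 and further upstream. The same rule gave the peak to both genes, and the boxes at -125 and -85 lie in the first exon of an annotated Shc1 transcript, which runs from -60 to -326. The nearest start to the NF-Y summit was that of Cks1b, and the nearest to the summit of the overlapping H3K4me3 peak (36.3-fold) was that of Shc1.

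**Figure D1:**
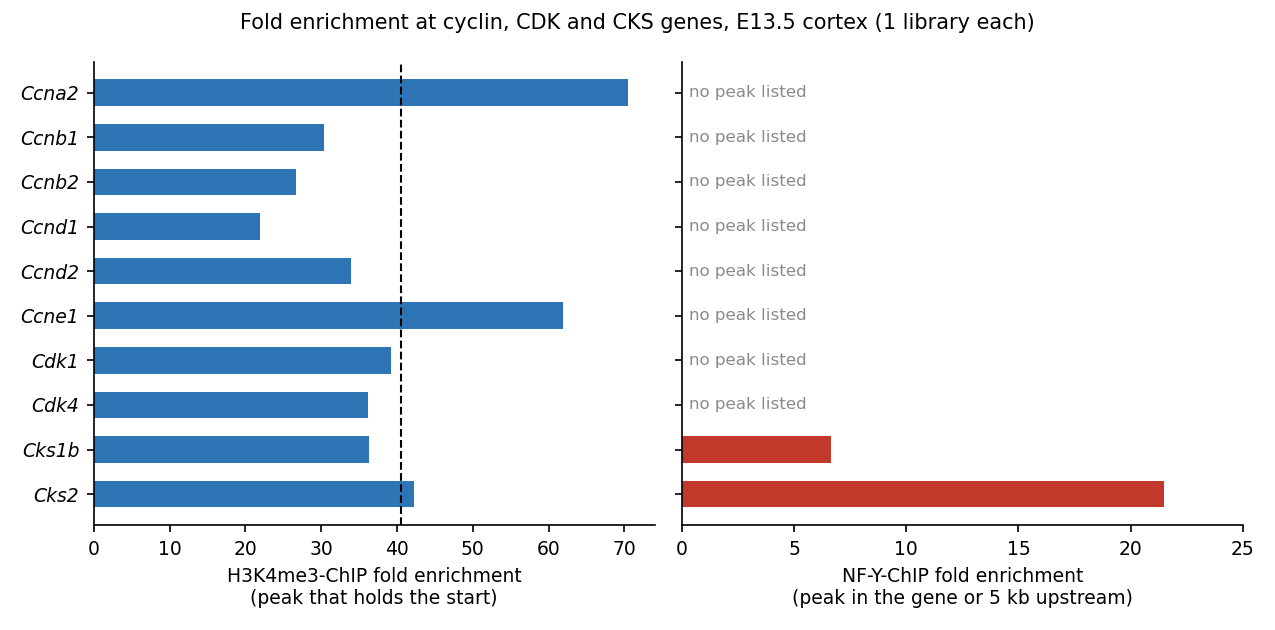
Fold enrichment at the summit for the H3K4me3-ChIP peak that holds each gene's start (left) and for the NF-Y-ChIP peak of each gene (right), 1 library each, without error bars. The dashed line is the median H3K4me3 value of all protein-coding genes whose start lies in a peak (40.5). Only Ccna2, Ccne1 and Cks2 lie above it, and only Cks1b and Cks2 have an NF-Y-ChIP peak.

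The other 8 genes had no NF-Y-ChIP peak under the rule. The summit nearest to Cdk4 was 57.8 kb downstream, at the promoter of Os9 (5.12-fold). That nearest to Ccnb2 was 214 kb away, at Myo1e (3.24-fold). For Ccna2 it was 571 kb away at Mccc1 (6.04-fold), and for Ccnb1 771 kb away at Mccc2 (13.0-fold). These Mccc genes encode the 2 subunits of one mitochondrial carboxylase. For Ccnd1 the nearest summit was 1110 kb away at Dhcr7 (8.32-fold), and for Ccnd2 1205 kb away at Tulp3 (6.18-fold). For Ccne1 it was 1342 kb away (19.3-fold), with Gm5114 as the nearest gene, and for Cdk1 6411 kb away at Cabin1 (3.89-fold). Over these 8 genes the median distance was 940 kb, beside 867 kb for all protein-coding genes on a chromosome with a peak. None of the 8 therefore had a peak that a wider window of 50 kb upstream would have added. A gene without a listed peak may still have signal under the threshold of the list, which was not analysed here.

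CCAAT boxes were found in the windows of 5 of the 10 genes: both B-type cyclins, Cdk1 and both CKS genes. This share (50%, 95% Wilson interval 23.7% to 76.3%) stood beside 38.4% of all protein-coding promoter windows with at least 1 box. Each of the 5 held at least 2 boxes, beside 12.2% of all windows. With an extended motif (purines before CCAAT, then C or G and a purine after it) 3 genes held at least 2, and Ccnb1 and Cdk1 held 1 each. The 4 genes with at least 3 were Ccnb2, Cdk1, Cks1b and Cks2, beside 3.67% of all windows. Of the 15 boxes, 11 lay before the start and 4 after it. Their median position was -28, whereas boxes in promoters that had a NF-Y-ChIP summit 1 kb or less from the start had a median of -82 (quartiles -144 and -44). All of these positions count from the principal starts. RefSeq places the start at 84 in Ccnb1, 92 in Cks1b and 26 in Cdk1, which puts their boxes further upstream. Its start is at -7 in Ccnb2 and 0 in Cks2. The median from RefSeq starts is not given here.

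**Figure D2:**
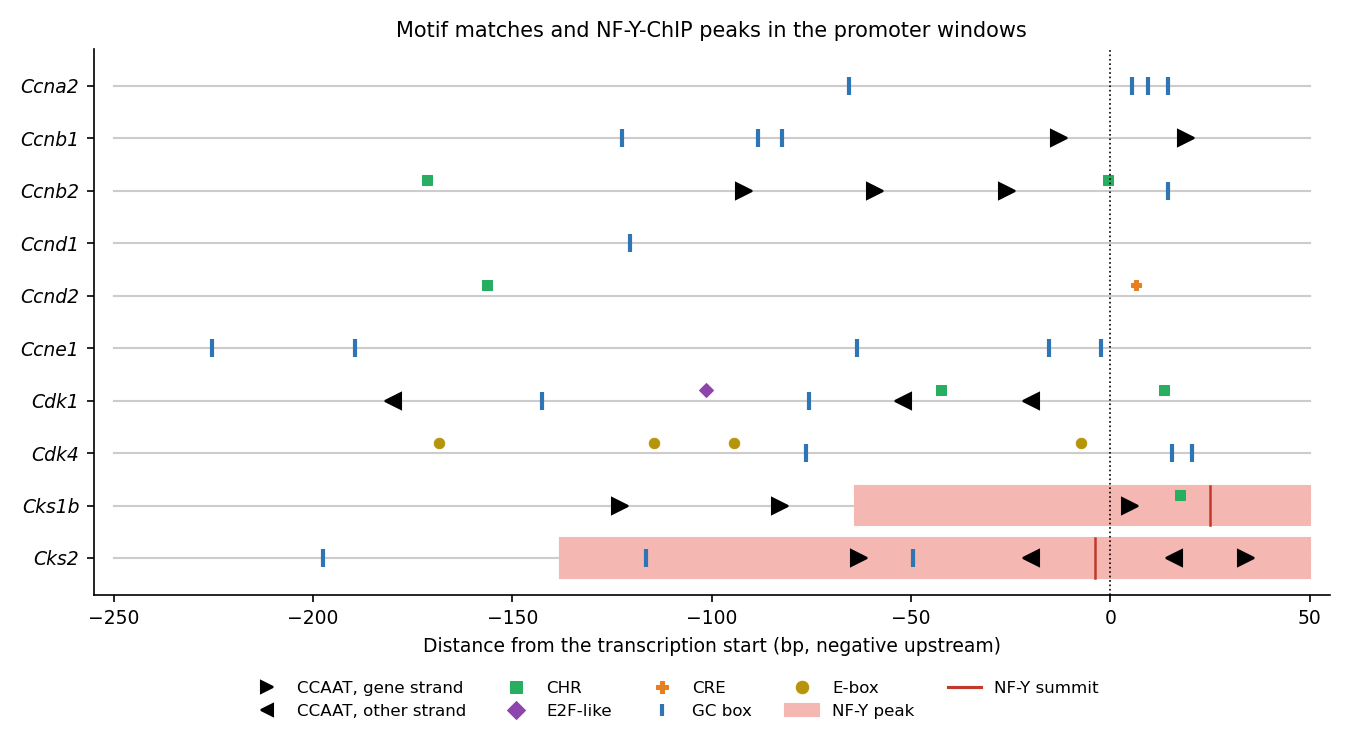
Motif matches in the promoter window of each gene, drawn by distance from the transcription start in bp. Arrowheads are the 15 CCAAT boxes, pointing right where the gene's strand reads CCAAT, and shaded bands are the 2 NF-Y-ChIP peaks with their summits as lines. Ccnb1, Ccnb2 and Cdk1 carry boxes without a band, whereas at Cks2 all 4 boxes lie in the band.

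The mitotic genes Ccnb1, Ccnb2 and Cdk1 carried 8 of the 15 boxes and had no NF-Y-ChIP peak. Ccnb1, which encodes cyclin B1, had boxes at -15 and 17, spaced by 32 bp. Ccnb2, which encodes cyclin B2, had 3 boxes in a row at -94, -61 and -28, each 33 bp from the next and all in the same orientation. Cdk1, the kinase partner of both, had boxes at -54 and -22 spaced by 32 bp, and a more distant one at -182, all read as ATTGG. In each of these 3 genes a pair of boxes of one orientation was thus 31 to 33 bp apart. Such a pair was present in 0.943% of all windows. This spacing was chosen after its values were seen. The CKS genes had no such pair: the steps were 40 bp and 88 bp in Cks1b, and 43 bp, 36 bp and 18 bp in Cks2, where the boxes 36 bp apart shared their orientation and the other neighbours did not.

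How often a promoter with these features had an NF-Y-ChIP peak was read from the promoters with an H3K4me3 peak within 1 kb of the start. Among those with 2 boxes, like Ccnb1, 16% had a summit of NF-Y-ChIP no further than 1 kb from the start (192 of 1200, Wilson interval 14% to 18.2%). With 3 boxes, like Ccnb2, Cdk1 and Cks1b, it was 26.3% (113 of 430, 22.3% to 30.6%). With 4 or more, like Cks2, it was 50% (105 of 210, 43.3% to 56.7%). With no box, like the other 5 genes, it was 1.33% (114 of 8590, 1.11% to 1.59%). Promoters with the pair 31 to 33 bp apart had a summit in 37.7% of cases (72 of 191, 31.1% to 44.7%). With each class read alone, promoters without a summit were thus the more frequent case with 2 boxes, with 3 boxes and with the pair. Ccnb1, Ccnb2 and Cdk1 were among these. The share for promoters with both 3 boxes and the pair is not given here.

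**Figure D3:**
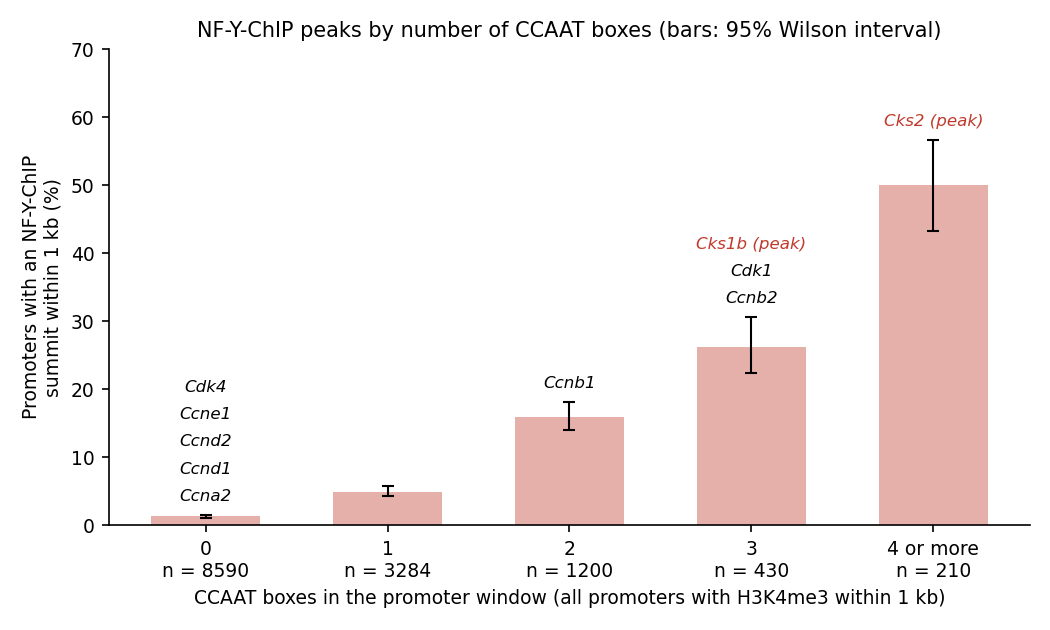
Percentage of promoters that have a NF-Y-ChIP summit 1 kb or less from the start, by the number of CCAAT boxes in the window, among all promoters with an H3K4me3-ChIP peak within 1 kb. Error bars are 95% Wilson intervals, which cover counting error only. The named genes stand over their class, with those that have a peak in red; the percentage goes from 1.33% without a box to 50% with 4 or more.

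The bases around each box were scored against those around boxes at NF-Y-ChIP summits. The score is the log2 odds of the 5 bases on each side of CCAAT, built from 644 boxes near summits, leaving out those of Cks1b and Cks2. The best score was 3.32 for Cks2 (box at -22), 2.97 for Ccnb2 (-94), 2.94 for Cdk1 (-54), 2.20 for Ccnb1 (17) and 1.36 for Cks1b (-85). The box with the best score in Cks1b was thus outside its peak, and those inside it scored 0.71 (at 3) and -0.13 (at 51). The order of the scores did not separate the genes with a peak from those without. Beside 572 other promoters with a summit, the best box of Ccnb2 scored above 64.7% of them, that of Cdk1 above 64.0% and that of Ccnb1 above 43.9%. The values were 76.6% for Cks2 and 27.3% for Cks1b. The median best score was 2.94 over the 5 genes and 2.43 over those 572 promoters. It was -0.49 over 4548 promoters with H3K4me3 and a box but no summit. Among promoters with at least 2 boxes, as all 5 genes have, the medians were 2.63 (408 with a summit) and 1.19 (1427 without). The score was built in part from boxes of the promoters with a summit, which raises their values, and the best score rises with the number of boxes. The weakest boxes were those of Cdk1 at -182 (-8.33) and Ccnb2 at -28 (-4.27), although the latter was the one nearest its start.

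**Figure D4:**
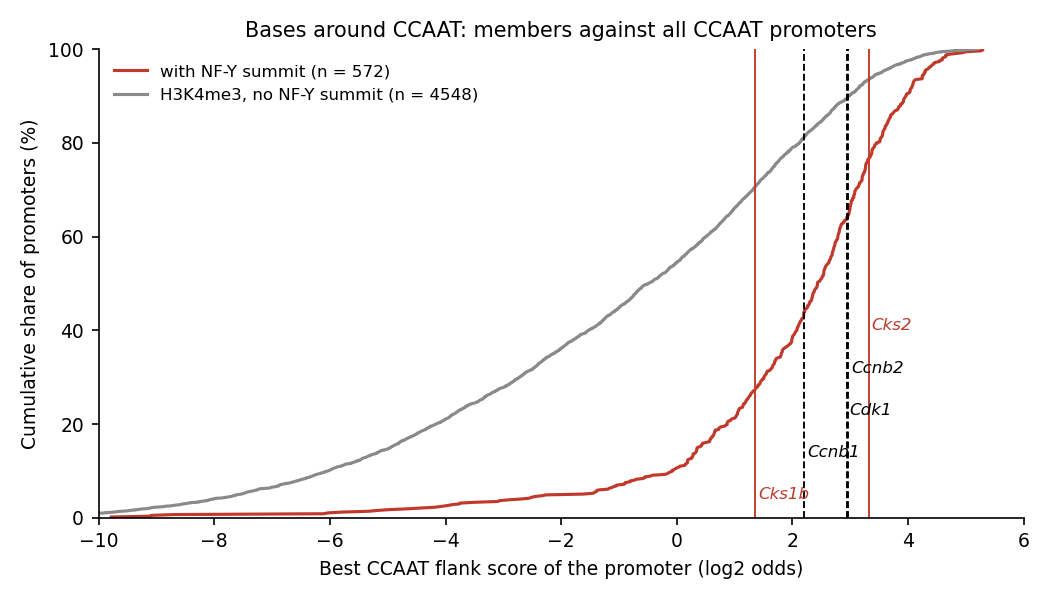
Cumulative percentage of promoters by the best score (log2 odds) of the bases around their CCAAT boxes, for promoters with an NF-Y-ChIP summit (red, 572) and for those with H3K4me3 and no summit (grey, 4548), the members left out. Vertical lines mark Cks1b and Cks2 (solid, with a peak) and Ccnb1, Cdk1 and Ccnb2 (dashed, without a peak). The dashed lines lie between the solid ones, at 2.20 to 2.97.

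No box was found in the windows of Ccna2, Ccnd1, Ccnd2, Ccne1 and Cdk4, that is in cyclin A2, cyclins D1 and D2, cyclin E1 and the kinase of the D-type cyclins. Ccne1 had none within 1 kb of its start on either side. In Ccnd2 the only one within 1 kb was at -689. The nearest to the start was at 234 in Ccnd1, in a coding exon, and at 328 in Cdk4, in an intron. The windows of these 5 genes had a GC content of 62.3% to 76.7%, those of the 5 genes with boxes 51.7% to 66.7%, so that the groups overlapped, and the median over all windows was 56.0%.

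Ccna2 had boxes outside the window. Its nearest box was at 125, in the 5′ UTR of the principal transcript, and others were at -348 and -454. The stretch around the first is shown because other transcripts of the gene start downstream of it.
Ccna2 after the start, chr3:36572011-36572035, minus strand: ggacgccctcATTGGtttatttcaa
A Ccna2 transcript annotated as a retained intron starts at 186 and one annotated as a target of nonsense-mediated decay at 223, which puts this box at -61 and -98 from those starts. The H3K4me3 summit of Ccna2 was at 373, nearer to those starts than to that of the principal transcript. Cks2, with 1 annotated transcript, had its summit at 365, so this position does not tell which Ccna2 start is used. In Ccnb1 the box positions also depended on the start chosen. From another protein-coding start of Ccnb1, at 84, its boxes lie at -99 and -67 in place of -15 and 17.

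Other motifs of cell cycle promoters were searched on both strands of the same windows. The cell cycle homology region (CHR, TTTGAA or TTCGAA), known as the binding site of the MuvB complexes, was found in Ccnb2, Ccnd2, Cdk1 and Cks1b. These 4 of 10 stood beside 17.3% of all windows. In Ccnb2 the CHR matches lay at -174 and -3, the second 25 bp after the last CCAAT box. In Cdk1 they lay at -45 and 11, the second 33 bp after the box at -22, and the first between both boxes of the pair. In Cks1b a match lay at 15, within the NF-Y-ChIP peak, and in Ccnd2 at -159. Cdk1 had the only E2F-like match (TTTCGCGC or TTTGGCGC or TTTCCCGC or TTTGCCGC), at -105, beside 2.86% of all windows. Ccnd2 had the only match to the cAMP response element (CRE; TGACGTCA or TGACGCAA or TGACGTAA), at 3, beside 3.69%. The GC box (GGGCGG) was found in 8 of 10 genes, all but Ccnd2 and Cks1b, beside 45.5% of all windows. It was most frequent in Ccne1 (5 matches) and Ccna2 (4). A match is a run of letters and shows no binding.

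Cdk4, without a CCAAT box, held 4 copies of the E-box CACGTG, the motif of Myc and related factors. They lay at -171, -117, -97 and -10. Only 6 of all 21853 windows held at least 4 copies (0.0275%, Cdk4 being 1 of the 10 genes), a count chosen after its values were seen. The stretch is shown with CACGTG in capitals.
Cdk4 upstream, chr10:127063353-127063533, plus strand: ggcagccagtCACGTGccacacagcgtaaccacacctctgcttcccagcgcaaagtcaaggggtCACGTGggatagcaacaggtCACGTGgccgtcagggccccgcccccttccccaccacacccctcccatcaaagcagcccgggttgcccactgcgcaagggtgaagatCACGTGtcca

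H3K4me3-ChIP peaks were listed at all 10 genes, beside 65.4% of protein-coding genes, and the start of each of the 10 lay inside a peak. The peak that held the start had a median fold enrichment of 36.2 over the 10 genes, beside 40.5 over the 12188 protein-coding genes whose start lay in a peak. Its median width was 1864 bp, beside 1434 bp. The genes of cyclins A2 and E1 had the strongest marks. Ccna2 had a fold enrichment of 70.4, rank 598 of the 18816 H3K4me3 peaks, and Ccne1 61.9, rank 1538. Cks2 followed with 42.2, then Cdk1 with 39.2, Cks1b with 36.3 and Cdk4 with 36.2. Ccnd2 had 33.9, and the B-type cyclins followed with 30.3 for Ccnb1 and 26.7 for Ccnb2. Ccnd1 was lowest with 21.9, rank 10851. Without replicates it is not known which neighbours in this order differ beyond their error.

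The genes with and without an NF-Y-ChIP peak overlapped in H3K4me3. The values of Cks1b and Cks2 (36.3 and 42.2) lay within the range of the other 8 (21.9 to 70.4). The 3 genes with CCAAT boxes and no NF-Y-ChIP peak had 26.7, 30.3 and 39.2, of which Cdk1 lay above Cks1b.

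The H3K4me3 peaks differed in width and number. The 10 genes had 24 peaks in all, with 1 peak each at Ccna2, Ccnb2, Ccne1 and Cdk1. Ccnd1 had 5 and Ccnd2 had 4. In Ccnd2, which encodes a cyclin of cortical progenitors, the peak at the start was the widest of those that held a start (2738 bp) and its summit lay 1293 bp inside the gene. In Ccnd1 that peak was 2304 bp wide with its summit at 1617. In the other genes apart from Cks1b the summit lay at 171 to 373. From the principal starts, the D-type cyclins thus had their summits further into the gene than the other members. The median was 199 for all protein-coding genes with a start in a peak (quartiles 109 and 318). The Ccnd1 summit lay 55 bp upstream of another annotated start, at 1672, that of a retained intron transcript. The Ccnd2 summit lay 1194 bp downstream of the nearest annotated start.

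Separate peaks upstream were listed for both D-type cyclins, and also for Cdk4 and Cks1b. In Ccnd1 they had summits at -302 (7.60-fold), -1606 (16.9-fold), -2551 (3.26-fold) and -3456 (5.46-fold). In Ccnd2 they had summits at -1143 (9.61-fold), -2348 (2.88-fold) and -3895 (7.77-fold). The first of these in Ccnd2 lay 10 bp upstream of another annotated start of the gene, at -1133. Those of Ccnd1 and Ccnd2 were weaker than the peak at the start of the gene. Counting all peaks under the rule, H3K4me3 covered 4951 bp at Ccnd2 and 4095 bp at Ccnd1, and 1250 bp at Ccnb2, the shortest. The median was 2225 bp over the 10 genes, beside 1562 bp over the 14283 protein-coding genes with a peak.

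At Cdk4 and Cks1b some peaks under the rule had their summits nearest to a start of a neighbouring gene. To which gene the mark belongs was not tested. The strongest peak under the rule for Cdk4 (46.0-fold) lay at -3513 and had its summit nearest to the start of March9, a gene transcribed away from Cdk4. A peak of 4.72-fold at -352 lay between it and the peak at the Cdk4 start. In Cks1b the peak that held the start ran from -1182 to 1067 and had its summit at -515, on the side of Shc1. Further upstream of Cks1b lay small peaks with summits at -1430 (4.76-fold) and -3675 (6.35-fold), both nearest to starts of Shc1. Cks2 had further small peaks at 1511 (5.67-fold) and 1871 (5.21-fold), in its intron, and Ccnb1 had one at 1261 (5.77-fold).

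**Figure D5:**
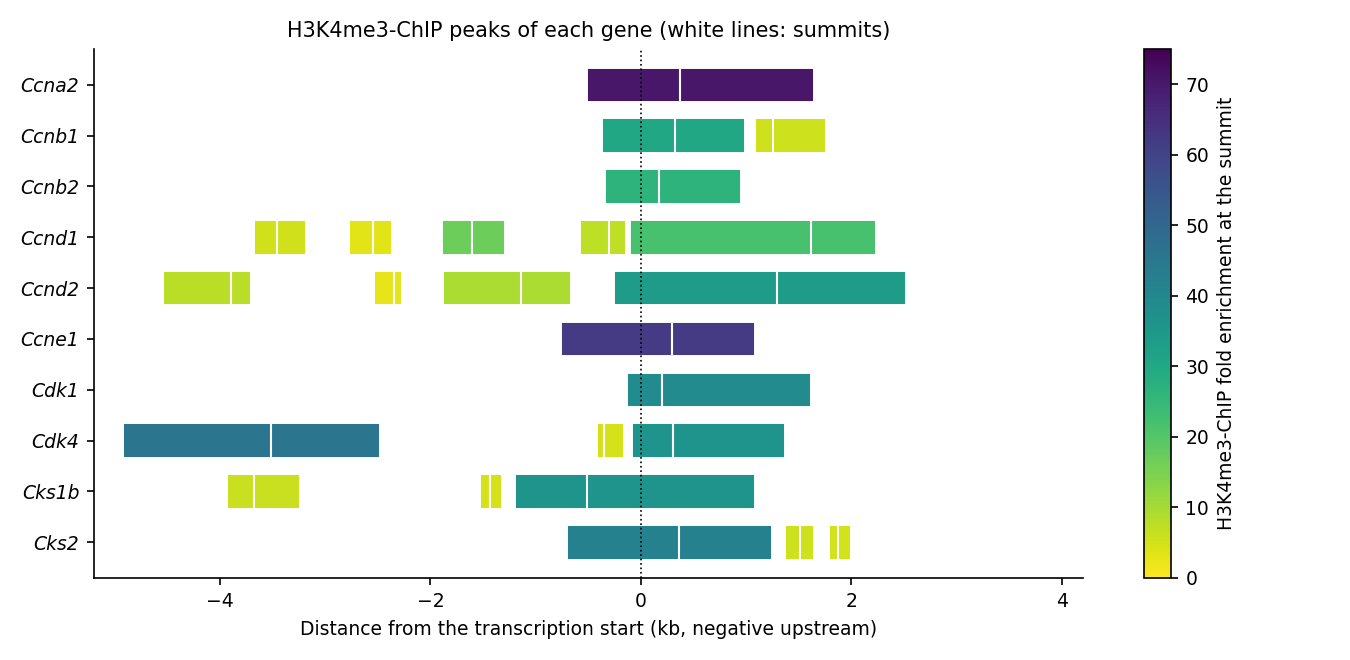
H3K4me3-ChIP peaks of each gene by distance from its transcription start in kb, negative upstream. Each bar is 1 peak, its colour the fold enrichment at the summit, and white lines are summits. The bars of Ccna2 (70.4) and Ccne1 (61.9) are darkest, Ccnd1, Ccnd2, Cdk4 and Cks1b have separate bars upstream, and the far bar of Cdk4 (46.0) lies at March9.

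The further cyclin and CDK genes were read in the same way. Of 18 others of the cell cycle and of CDK activation, 3 had an NF-Y-ChIP peak, beside 3.67% of all protein-coding genes. Ccng2, which encodes an atypical cyclin linked to cell cycle arrest, had 12.2-fold (rank 85) with its summit at -94 and 3 boxes in its window. Ccnj, which encodes cyclin J, had 7.18-fold (rank 314) with its summit at -12 and 2 boxes. Ccnf, which encodes the F-box protein cyclin F, had 4.14-fold (rank 681) with its summit at -185 and 2 boxes. The −log10 q-value of the Ccnf peak was 0.68, which is above a q-value of 0.05. Boxes were present in 9 of the 18, beside 38.4% of all windows. Of these 9, 6 had no NF-Y-ChIP peak, and of all promoters with H3K4me3 and a box 4551 of 5124 had no summit. All of the 18 but Ccnb3 had an H3K4me3 peak (17), beside 65.4% of all protein-coding genes. Of 13 cyclin and CDK genes that act in transcription, none had an NF-Y-ChIP peak, 6 had a box and 13 had H3K4me3.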

How the data were processed

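ChIP-seq was made from E13.5 mouse cortices with 1 library each of input, NF-Y-ChIP and H3K4me3-ChIP, grouped by the antibody in the labels. The submitters' processing notes name FastQC, Bowtie2 2.2.8, MACS2 2.1.2 and GRCm38, and the study's methods also name Trimmomatic. The study used the input as a negative control, and whether it was given to MACS2 is not stated in the sources used here. The list names carry no antibody. The lists were assigned by the rule given for this work, by the NF-Y-ChIP peak number, which equals the study's, and by the thresholds seen in their values, a p-value of 0.001 (NF-Y-ChIP) and a q-value of 0.05 (H3K4me3-ChIP). The H3K4me3-ChIP list holds 18816 peaks, which is not the number of regions that the study counts. The deposited files hold a display score, the fold enrichment (a ratio) at the summit, the −log10 p-value and q-value, and the summit offset, all computed by the authors with MACS2 for each library. The lowest −log10 p was 3.62 for NF-Y-ChIP and the lowest −log10 q 1.35 for H3K4me3-ChIP.

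Peaks were assigned to GENCODE M21 genes, leaving out 85 protein-coding genes without a protein-coding transcript and 13 outside chromosomes 1 to 19, X and Y. The start was that of the principal transcript (lowest APPRIS number, then basic tag, support level and length). Motifs were read from the GRCm38 RefSeq genome with samtools 1.23.1 and pysam 0.24.0 in Python 3.11.15, and Wilson intervals came from scipy 1.17.1. Flank scores used a pseudocount of 0.5 and boxes within 50 bp of a summit. Scripts were tested on simulated data. The members and lists were chosen with earlier results of these data known. Named genes were all members, genes of the other cyclin and CDK list with an NF-Y-ChIP peak, and the genes nearest to the peaks described. Ccnb3 and Ccng1 were named after their values were seen. Alternatives were other thresholds, windows, starts, motifs and overlaps. A check of genes of other tissues is not reported here.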

Additional observations from a re-analysis of the deposited data

How the results depend on the processing

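The number of the 10 genes with an NF-Y-ChIP peak stayed at 2 with a q-value under 0.05, with a summit within 1 kb of any start, with 1 kb or 50 kb upstream and with at least 50% of the peak overlapping. It was 1, Cks2, among peaks of at least the median fold enrichment. Genes with at least 2 CCAAT boxes fell from 5 to 3 (Ccnb2, Cks1b and Cks2) where purines were required before CCAAT and C or G, then a purine, after it. These values of 1 and 3 were the 2 of 29 under an alternative that differed by over 1.5 times from those reported, and the count of genes with at least 2 boxes was otherwise 4 to 6. Genes with at least 1 box numbered 5 to 7, with Ccna2 added by a longer window or by transcripts of any type, and Cdk4 by other transcripts. The setting with transcripts of any type was chosen after seeing the data. Of the 10 genes, 7 matched the promoter sequences of RefSeq. The unmatched Ccna2, Ccnd1 and Ccnd2 were counted as having no box under that setting, so it did not test them. H3K4me3 was present at 8 to 10 genes, the median fold enrichment was 36.2 to 37.7, the median covered width 1864 to 2394 bp and the median best flank score 2.43 to 2.94. No paired analysis was possible because each antibody has 1 library. A gene without NF-Y binding cannot be told apart from one missed at low depth, since the depth is unknown.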

Other observations

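Outside the promoter windows, the Ccnd1 and Cdk4 genes held further CCAAT boxes within 1 kb of the start, inside H3K4me3 peaks and without an NF-Y-ChIP peak: at 234, 513, 790 and 847 in Ccnd1, and at 328, 735, 907 and 933 in Cdk4. From the RefSeq start of Cks1b, at 92, the window holds 4 boxes. Ccng1, which encodes an atypical cyclin like Ccng2, had 4 boxes in its window and no NF-Y-ChIP peak.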
